A study of Mus musculus with 24 samples.

Results

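The collagen gene family was followed in mouse lung after bleomycin injury and during gapmer treatment against Dnm3os. Members were all genes whose array symbol consists of Col, a type number, the letter a and a chain number, which gave 42 of the 20728 named genes. They were read on 72 array features; 16 members had several features, up to 10 for Col4a1, and the feature with the highest mean stood for the gene. Whole lung of C57BL/6 mice aged 9 to 12 weeks had been hybridised as total RNA to 24 one-colour Agilent arrays. The mice were given PBS or bleomycin, which breaks DNA and scars the lung, and each of these was paired with a control gapmer or with gapmer 1 or 3 against Dnm3os. Gapmers are antisense oligonucleotides that recruit RNase H to cut a matching RNA. Dnm3os is a long noncoding RNA encoded on the strand opposite Dnm3. No group went without a gapmer, and the 6 groups held 3 arrays each with PBS and 5 each with bleomycin. The sources used here do not give doses, the interval from bleomycin to sampling, or sex. Samples are numbered in the labels with no animal named, so p-values reflect the spread between samples, which may be technical.

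Collagens are trimers of alpha chains wound into a triple helix, and their classes differ in what the trimers build. Fibrillar collagens form the banded fibres that carry tension and accumulate in fibrotic scars, while type IV chains form the sheet-like mesh of basement membranes, including the thin one shared by alveolar epithelium and capillaries. Type VI forms beaded filaments, types VIII and X hexagonal networks, type VII anchoring fibrils, and fibril-associated collagens with interrupted helices (FACIT) decorate the surface of fibres. Multiplexins lie in basement membranes, and the transmembrane members are carried on cell surfaces. By these classes the 42 members comprised 11 fibrillar, 6 basement membrane, 3 network, 5 beaded filament, 9 FACIT, 1 anchoring fibril, 2 multiplexin and 4 transmembrane genes, and Col28a1, which belongs to none of them.

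The DNA just upstream of the start site is printed for 5 collagens that rose together with bleomycin, since the results turn on them, and for Col4a2, whose start lies 21 bases from that of Col4a1. The sequences are those of RefSeq on GRCm38.p6, given 5′ to 3′ on the strand of the gene. Capitals mark 3 motifs on either strand, so that a reverse complement is in capitals too, and no marked motif overlaps another here. The first is the letters CCAAT, known to be bound by the factor NF-Y in many promoters. The second, which binds Sp1 and its relatives, is the run of letters GGGCGG, called the GC box. The last is the element bound by the TATA-binding protein, searched for as TATAAA. The Col1a2 window is chr6:4505368-4505617 (+), Col3a1 chr1:45311288-45311537 (+), Col5a1 chr2:27886175-27886424 (+), Col5a3 chr9:20815068-20815317 (−), Col7a1 chr9:108953336-108953585 (+) and Col4a2 chr8:11312761-11312790 (+). The first 5 hold the 250 bases before the start, and that of Col4a2 holds 30 bases around its CCAAT box.
Col1a2: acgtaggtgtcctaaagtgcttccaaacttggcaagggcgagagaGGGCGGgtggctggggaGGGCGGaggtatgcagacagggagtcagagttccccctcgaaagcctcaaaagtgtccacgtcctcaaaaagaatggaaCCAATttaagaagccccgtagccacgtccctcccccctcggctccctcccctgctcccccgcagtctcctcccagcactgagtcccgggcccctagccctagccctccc
Col3a1: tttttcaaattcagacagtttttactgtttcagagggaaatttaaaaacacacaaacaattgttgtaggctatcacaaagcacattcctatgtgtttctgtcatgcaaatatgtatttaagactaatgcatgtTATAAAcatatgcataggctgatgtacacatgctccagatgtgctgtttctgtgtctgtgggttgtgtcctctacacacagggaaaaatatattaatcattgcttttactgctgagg
Col5a1: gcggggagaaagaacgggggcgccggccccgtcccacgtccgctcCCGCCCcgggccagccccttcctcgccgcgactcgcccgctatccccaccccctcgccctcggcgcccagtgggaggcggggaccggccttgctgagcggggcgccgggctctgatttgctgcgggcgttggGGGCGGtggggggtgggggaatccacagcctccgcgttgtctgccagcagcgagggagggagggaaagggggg
Col5a3: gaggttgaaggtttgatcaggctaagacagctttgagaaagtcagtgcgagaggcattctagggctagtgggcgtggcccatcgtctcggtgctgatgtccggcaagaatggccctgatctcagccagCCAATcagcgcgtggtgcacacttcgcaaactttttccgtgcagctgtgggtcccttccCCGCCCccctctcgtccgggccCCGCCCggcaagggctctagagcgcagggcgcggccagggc
Col7a1: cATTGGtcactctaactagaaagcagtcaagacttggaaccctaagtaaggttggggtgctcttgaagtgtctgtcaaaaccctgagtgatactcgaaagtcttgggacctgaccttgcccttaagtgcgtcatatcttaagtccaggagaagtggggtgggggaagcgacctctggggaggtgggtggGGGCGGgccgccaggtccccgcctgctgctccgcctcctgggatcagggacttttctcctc
Col4a2: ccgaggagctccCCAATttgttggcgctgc

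Of the 42 members 34 had an entry in the upstream table; Col1a1, Col2a1, Col4a3, Col5a2, Col9a3, Col12a1, Col14a1 and Col22a1 were not matched. A CCAAT box on either strand lay within 250 bases upstream in 13 of the 34 (38.2%), against 37.5% of 27025 genes. A GC box was present in 21 members (61.8%), against 35.4% of genes, and TATAAA in 5 (14.7%), against 14.3%. Among the printed windows Col1a2, Col5a3 and Col7a1 held both a CCAAT box and a GC box, Col5a1 held GC boxes alone, and Col3a1 held TATAAA alone. These are letter matches and were not tested for factor binding.

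The deposited values are log2 intensities between 5.03 and 18.25, with array medians between 6.485 and 6.495, and RNA integrity numbers ran from 8.5 to 10. A value is read within a feature across arrays and does not rank genes against each other. Lung identity was borne out by Sftpc, the surfactant protein C gene of alveolar type 2 cells, at a mean of 17.94 to 18.03 in all groups. The targeted RNA was compared first. The brightest feature of Dnm3os read 6.84, 7.03, 6.64, 7.05 and 6.93 in bleomycin controls, 6.08, 5.99, 6.12, 6.48 and 6.24 with gapmer 1, and 6.29, 6.26, 6.26, 6.42 and 6.78 with gapmer 3. It was lower by limma with gapmer 1 (-0.72, adjusted p = 0.000186) and with gapmer 3 (-0.50, adjusted p = 0.00293), only the gapmer 3 array at 6.78 reaching into the control range. In PBS mice the differences were -0.45 (adjusted p = 0.0882) and -0.25 (adjusted p = 0.577). The labels were borne out by that feature in bleomycin mice. On the next feature of Dnm3os the mean was 6.38 in bleomycin controls, lower by 0.28 with gapmer 1 (6.10, exact permutation p = 0.00794) and different by -0.21 with gapmer 3 (exact permutation p = 0.0556). The last feature, close to background at 5.72 to 5.81, differed by -0.01 and -0.08. The brightest feature averaged 6.18 and 6.40 with gapmers 1 and 3 in bleomycin mice, and 5.89 and 6.10 in PBS mice. Both PBS means, and the 6.10 of the next feature, lay under 6.11, the bound used below for dim genes. The mean of 6.18 lay just above it. Falls that reach dim levels are lower bounds.

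With the control gapmer, 23 of the 42 collagens rose with bleomycin and 3 fell (limma over all genes, adjusted p under 0.05). That is 54.8% and 7.14% of the members, where 14.5% of all 20728 genes were higher and 19.3% lower. The median member differed by 0.32 on the log2 scale and the median of all genes by -0.02. Gene intensities under 6.11, the 25th percentile of gene means, were treated as dim: 6 members were dim in all groups (Col6a5, Col6a6, Col9a1, Col9a3, Col11a1 and Col19a1) and 8 in some. Folds from a dim group are given as lower bounds. In whole lung, fewer cells of a type and less RNA per cell cannot be told apart, and the number of arrays limits the precision.

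Fibrillar collagens moved most as a class: 9 of 11 rose, none fell and their median difference was 1.42. Col5a3, a chain of type V collagen, which governs fibril diameter, rose most. It read 8.40, 8.54 and 8.25 with PBS and 10.54, 10.80, 10.22, 10.65 and 10.27 with bleomycin, a gap far wider than the spread of either group. The rise was 2.10 (SE 0.23, 4.29-fold, adjusted p = 5.55e-07). Col1a1, which encodes the main chain of type I collagen, read 13.11, 12.94 and 13.05 with PBS and 14.85, 15.07, 14.92, 14.94 and 14.70 with bleomycin. Both groups were tight and did not overlap, and the rise was 1.86 (SE 0.15, 3.64-fold, adjusted p = 9.69e-09). Col5a2, another type V chain, read 8.32, 8.07 and 8.56 with PBS and 10.30, 10.30, 10.00, 10.02 and 9.63 with bleomycin. It rose 3.33-fold (1.74, SE 0.25, adjusted p = 1.06e-05) although PBS arrays differed among themselves.

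Col1a2, the partner chain of Col1a1, read 15.14, 15.11 and 14.34 with PBS, the array of replicate 3 standing low. With bleomycin it read 16.62, 16.70, 16.39, 16.70 and 16.39, a 3.24-fold rise (adjusted p = 6.01e-06). Col3a1, which forms the reticular fibres of type III collagen, rose 2.93-fold (1.55, SE 0.15), from 13.71 ± 0.20 (SD, n = 3) to 15.26 ± 0.14 (SD, n = 5). Col5a1 read 10.21, 10.22 and 10.10 with PBS and 11.63, 11.93, 11.47, 11.70 and 11.29 with bleomycin, a 2.68-fold rise (adjusted p = 2.56e-06). Col24a1, a minor fibrillar gene, was dim at 5.93, 5.68 and 5.86 with PBS and read 7.09, 7.28, 6.98, 7.29 and 6.88 with bleomycin. Its rise was at least 1.99-fold. The cartilage collagen Col2a1 rose at least 1.3-fold (adjusted p = 0.0119) from a dim PBS level, a call lost without PBS control replicate 1. It read 6.22, 6.25, 7.29, 6.57 and 6.08 with bleomycin, and the difference ran from 0.50 to 0.81 over the fits that left out 1 array. Col11a1, its partner in cartilage fibrils, passed the test at 0.32 while both groups stayed dim, so no fold is given, and it was lost without PBS control replicate 1. Col11a2 (0.03) and Col27a1 (-0.05) did not pass. Of 10 cartilage markers 1 rose and 1 fell, and their mean shift from PBS controls was 0.07 to 0.20 per bleomycin control array against -0.12 to 0.10 in the PBS controls.

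**Figure D1:**
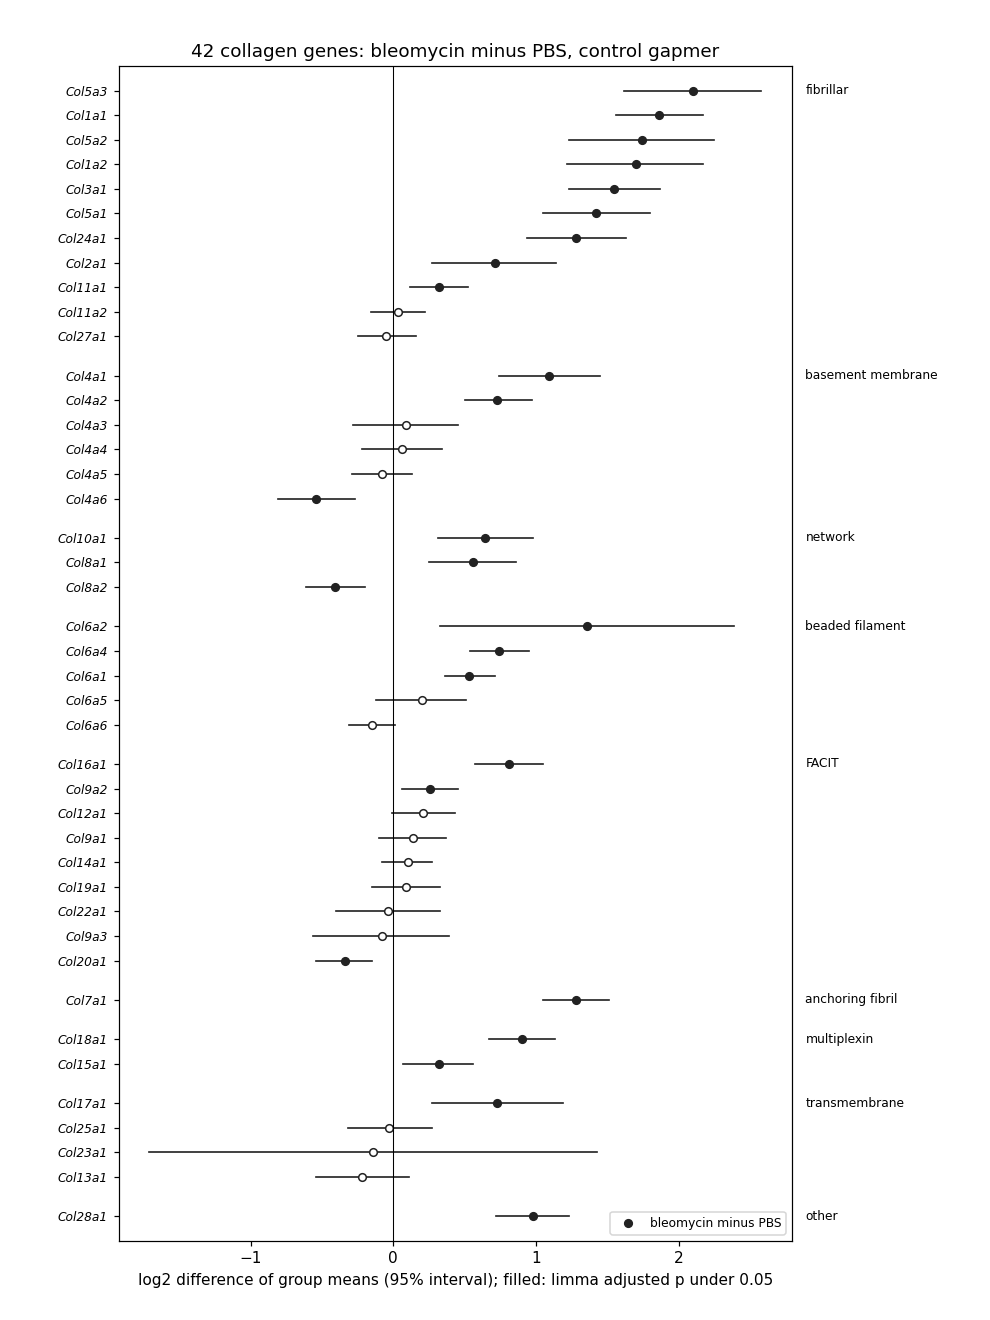
Difference between bleomycin and PBS lungs given the control gapmer for each of the 42 collagens, on the log2 scale (x axis), grouped by class (y axis), with 95% confidence intervals from limma and filled symbols where the test passed; 5 bleomycin and 3 PBS arrays. Fibrillar genes fill the right of the plot, from 1.28 to 2.10 for the 7 led by Col5a3, while Col4a6, Col8a2 and Col20a1 lie to the left of 0.

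Basement membrane collagens divided by chain. Col4a1 and Col4a2, the chains found in nearly all basement membranes, rose 2.13-fold (adjusted p = 3.24e-05) and 1.66-fold (adjusted p = 3.26e-05). Col4a2 read 13.25, 13.34 and 12.90 with PBS and 13.94, 13.90, 13.78, 14.05 and 13.82 with bleomycin, without overlap. All 10 features of Col4a1 gave a rise, between 1.01 and 1.20. Col4a3, Col4a4 and Col4a5 form the mature trimer of alveolar and glomerular basement membranes, and they differed by 0.09, 0.06 and -0.08, none passing the test. Their 95% intervals were -0.28 to 0.45, -0.22 to 0.34 and -0.29 to 0.13, which exclude the size of the Col4a1 rise. These hold for the feature that stood for each gene, and the 3 features of Col4a4 ranged from 0.03 to 0.52. PBS control replicate 3 was the lowest of its group for Col4a1, Col4a2, Col4a3 and Col4a4. Col4a6, which pairs with Col4a5 chains in smooth muscle and other basement membranes, read 10.56, 10.24 and 10.54 with PBS and 9.86, 9.72, 9.94, 9.78 and 10.25 with bleomycin. It fell by 0.54 (SE 0.13, adjusted p = 0.00236), and its features differed, from -0.54 to -0.01.

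Among the network collagens Col8a1, which is made in vessel walls, rose 1.47-fold (adjusted p = 0.00543). Col10a1, the collagen of hypertrophic cartilage, rose at least 1.19-fold (adjusted p = 0.00332). Col8a2, the second type VIII chain, moved the opposite way. It read 8.86, 8.96 and 9.07 with PBS and 8.84, 8.48, 8.37, 8.58 and 8.53 with bleomycin, and fell by 0.41 (adjusted p = 0.00296). Its features ranged from -0.41 to 0.11, and the call was lost when they were averaged. Type VI collagen, the beaded filament around cells, rose in its core chain Col6a1, which read 13.98, 13.96 and 13.68 with PBS and 14.35, 14.38, 14.30, 14.56 and 14.45 with bleomycin. The rise was small and clear of the spread (1.45-fold, adjusted p = 4.47e-05). Col6a2, the other core chain, was variable at 10.83, 9.55 and 9.89 with PBS and 12.00, 11.86, 11.73, 12.08 and 9.59 with bleomycin. Its difference of 1.36 (SE 0.50) passed at an adjusted p of 0.0381, with overlap. The call was lost without PBS control replicate 2 or 3 or bleomycin control replicate 1, 2, 3 or 4. It was also lost with only the groups compared (adjusted p = 0.0868) or the RNA integrity number as a covariate (adjusted p = 0.105). Over all fits that left out 1 array, whether or not the call was kept, the difference ran from 1.09 to 1.83. Of the alternative chains Col6a4 rose at least 1.35-fold (adjusted p = 5.18e-06), Col6a5 and Col6a6 stayed dim, and Col6a3 is not analysed here. The features of Col6a4 ranged from 0.04 to 0.74.

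FACIT genes changed little as a class, with 2 of 9 higher, 1 lower and a median of 0.10. Col16a1 was the exception in size: it read 11.98, 12.11 and 11.98 with PBS and 12.84, 12.95, 12.63, 13.01 and 12.75 with bleomycin, a 1.75-fold rise (adjusted p = 1.37e-05). Its features spread from -0.07 to 0.81. Col9a2, a chain of the FACIT of cartilage fibrils, rose by 0.26 (adjusted p = 0.0393), and by 0.18 to 0.34 over all fits that left out 1 array. The call was lost without PBS control replicate 1 or 2 or bleomycin control replicate 1, 2, 3 or 5. Median centring or quantile normalisation over genes also ended it. Col20a1 read 7.69, 7.63 and 7.61 with PBS and 7.23, 7.30, 7.21, 7.21 and 7.54 with bleomycin. It fell by 0.34 (adjusted p = 0.00656). Col12a1 and Col14a1, which coat type I fibrils, differed by 0.21 and 0.10 without passing, as did Col22a1 at -0.04, and Col9a1, Col9a3 and Col19a1 were dim. The features of Col14a1 ranged from 0.10 to 0.41, and it passed as a rise when they were averaged or each was tested.

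The collagens that anchor epithelium rose too. Col7a1, the anchoring fibril that ties epithelial basement membrane to stroma, read 10.29, 10.20 and 10.25 with PBS and 11.55, 11.76, 11.51, 11.61 and 11.21 with bleomycin. It rose 2.43-fold (SE 0.11 on the log2 scale, adjusted p = 2.28e-08). Col17a1, the hemidesmosomal collagen of basal keratinocytes, read 7.69, 7.63 and 7.73 with PBS and 8.40, 8.73, 8.36, 8.35 and 8.22 with bleomycin, a 1.66-fold rise (adjusted p = 0.0132). Of 8 basal and squamous epithelial markers 6 rose, Krt5 by 4.44 and Krt14 by 3.69. Their mean shift from PBS controls ran from -1.25 to 0.88 in PBS control arrays and from 2.06 to 2.86 in bleomycin controls. With PBS it ran from 2.18 to 2.68 under gapmer 1 and from -1.09 to 2.68 under gapmer 3. Their part in the collagen values was not tested. Of the multiplexins Col18a1, the source of endostatin, read 10.80, 10.85 and 11.02 with PBS and 11.65, 11.92, 11.78, 11.81 and 11.78 with bleomycin. It rose 1.86-fold (adjusted p = 2.1e-06). Col15a1 rose at least 1.16-fold at an adjusted p of 0.0426, with overlapping arrays; the call was lost without PBS control replicate 2 or 3 or bleomycin control replicate 2 or 4 (0.23 to 0.37) and after median centring, quantile normalisation over genes, a fit of only the groups compared or the RNA integrity number as a covariate.

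Col28a1, a collagen with von Willebrand factor domains, was dim at 5.88, 5.67 and 5.67 with PBS and read 6.68, 6.85, 6.54, 6.75 and 6.74 with bleomycin, at least 1.52-fold higher (adjusted p = 2.88e-06). The transmembrane Col13a1 (-0.22), Col23a1 (-0.14) and Col25a1 (-0.03) did not pass. Col23a1 read 9.83, 9.97 and 9.36 in PBS controls, 10.07, 9.95 and 9.92 with gapmer 1 and 10.00, 10.02 and 15.76 with gapmer 3. Only replicate 3 of the last group was high, and that array read 9.41 and 6.92 on the other Col23a1 features, where the rest of its group read 9.64 and 9.81 and then 7.15 and 6.66. In bleomycin lungs Col23a1 read 9.61, 9.62, 9.32, 9.62 and 9.72 in controls, 9.51, 9.84, 9.72, 9.31 and 9.31 with gapmer 1 and 9.61, 9.41, 9.28, 9.26 and 9.23 with gapmer 3. Those 3 groups overlapped.

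In bleomycin lungs 8 collagens fell and 2 rose with gapmer 1, and 10 fell and 3 rose with gapmer 3, each against the control gapmer. For gapmer 1 this was 19% and 4.76% of members, where 5.08% of all genes were lower and 5.47% higher. For gapmer 3 it was 23.8% and 7.14% of members against 7.52% and 5.63% of genes. Median members differed by -0.14 and -0.16, and the medians of all genes by 0.02 and 0.01. The gapmers share their 5 control arrays, and those controls also enter the bleomycin response above. The comparisons are therefore not independent, and their values are given side by side. With gapmer 1 the genes that fell were Col1a1, Col5a1, Col5a3, Col6a4, Col7a1, Col17a1, Col18a1 and Col28a1, and with gapmer 3 they were these and Col12a1 and Col24a1.

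The type V chains Col5a3 and Col5a1 fell with both gapmers, and Col5a2 passed with neither. Col5a3 read 9.72, 9.08, 9.37, 10.63 and 9.30 with gapmer 1 and 9.73, 9.58, 9.08, 9.28 and 9.51 with gapmer 3, against 10.22 to 10.80 in controls. Gapmer 1 replicate 4 lay at control level while the other 4 arrays of that group, and all of gapmer 3, lay below. Col5a3 fell by 0.88 (SE 0.20, adjusted p = 0.00707) and by 1.06 (SE 0.20, adjusted p = 0.00112). Col5a1 read 11.00, 10.45, 10.73, 11.59 and 10.71 with gapmer 1 and 10.99, 10.84, 10.47, 10.87 and 10.83 with gapmer 3. It fell by 0.71 (adjusted p = 0.00529) and by 0.80 (adjusted p = 0.00135), with replicate 4 again high at 11.59. Both gapmer 1 calls were lost with only the groups compared (adjusted p = 0.0629 for Col5a3 and 0.053 for Col5a1). Col5a2 differed by -0.65 (adjusted p = 0.0533) and -0.49 (adjusted p = 0.147), reading 9.53, 8.74, 8.85, 10.12 and 9.74 and 9.70, 9.40, 9.06, 9.90 and 9.75.

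Col1a1 read 14.44, 13.97, 14.11, 14.90 and 14.35 with gapmer 1 and 14.54, 14.42, 14.15, 14.61 and 14.50 with gapmer 3, against 14.70 to 15.07 in controls. It fell by 0.54 (SE 0.13, adjusted p = 0.00913) and by 0.45 (SE 0.13, adjusted p = 0.022). The gapmer 1 call was lost with only the groups compared (adjusted p = 0.0577), and the gapmer 3 call without bleomycin control replicate 2 or 4 or gapmer 3 replicate 3. The gapmer 3 difference ran from -0.50 to -0.38 over all fits that left out 1 array. Col1a2 read 16.33, 15.70, 15.85, 16.76 and 15.31 with gapmer 1 and 16.23, 16.10, 15.70, 16.14 and 15.95 with gapmer 3. The Col1a2 differences of -0.57 (95% interval -0.98 to -0.16) and -0.54 (-0.95 to -0.12) were as large as those of Col1a1 and did not pass (adjusted p = 0.0704 and 0.0805). Col3a1 differed by -0.36 and -0.37 (adjusted p = 0.0932 and 0.0739). Col24a1 read 6.98, 6.32, 6.56, 7.33 and 6.67 with gapmer 1 and 6.73, 6.66, 6.28, 6.46 and 6.65 with gapmer 3. It fell with gapmer 3, by 0.55 (adjusted p = 0.0138), and differed by -0.33 with gapmer 1. Col2a1 differed by -0.44 and -0.47, and Col11a1 by -0.16 and -0.15, without passing, and Col11a2 and Col27a1 stayed within 0.04 of controls.

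Bleomycin gapmer 1 replicate 4 set much of the spread of that group. It read 14.90 for Col1a1, 16.76 for Col1a2, 10.63 for Col5a3, 11.59 for Col5a1 and 11.75 for Col18a1, all within the control ranges or above them. Dnm3os in that array was 6.48, the highest of its group. Any link between that level and the collagen values of the array was not tested. The array was picked for its high values on these collagens, so larger falls without it follow from that choice. Without it 13 collagens were lower with gapmer 1 and 4 higher, and the shares of all genes in that fit are not given here. The added falls were Col1a2 (-0.76), Col3a1 (-0.45), Col5a2 (-0.83), Col24a1 (-0.47) and the network chain Col8a1 (-0.50), and the added rises Col4a5 (0.30) and Col4a6 (0.36).

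**Figure D2:**
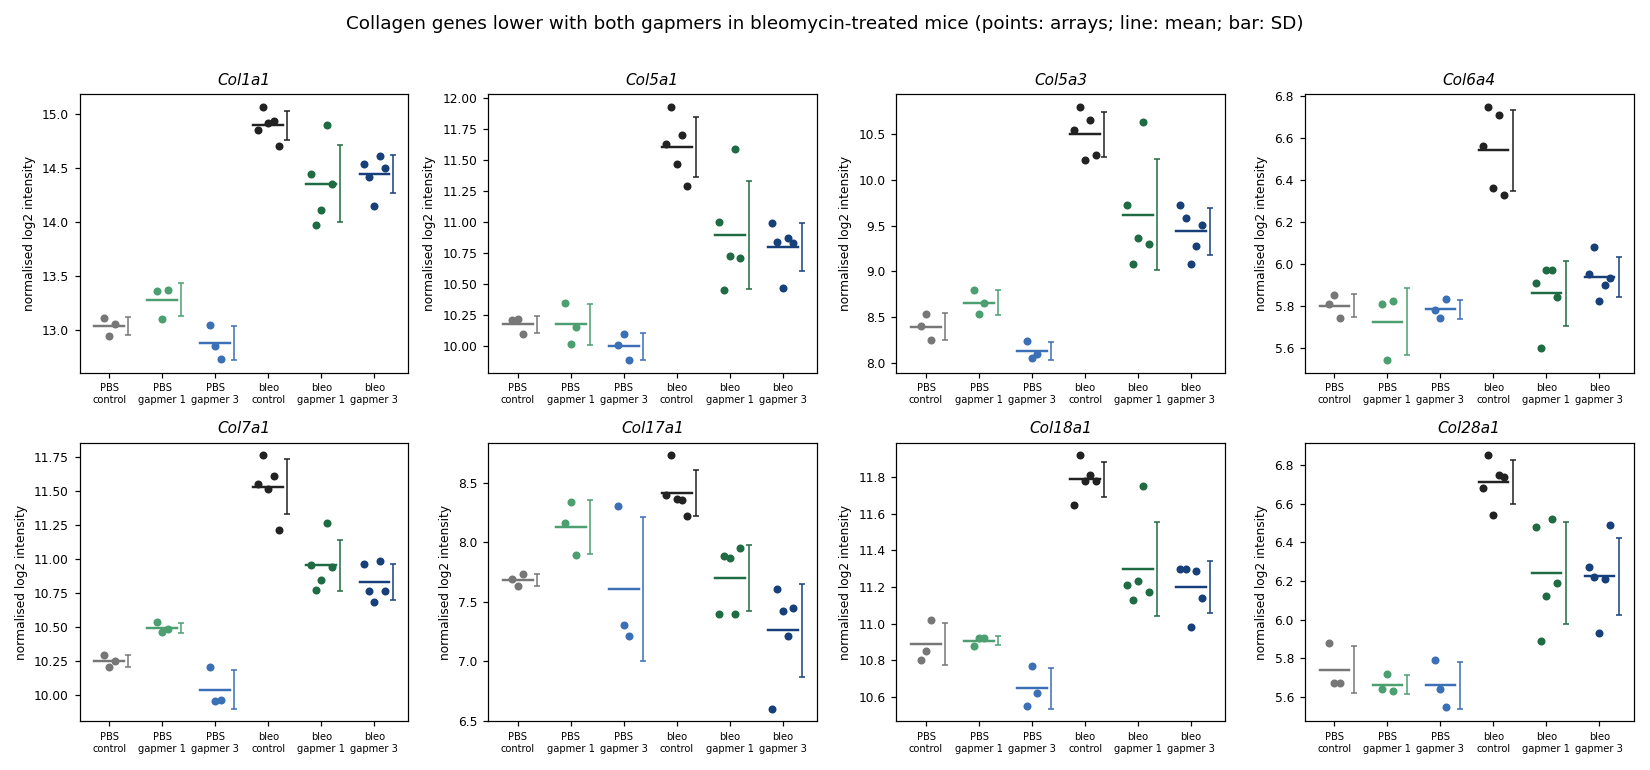
Log2 intensity per array (y axis) in the 6 groups (x axis) for the 8 collagens that fell with each gapmer in bleomycin lungs; points are arrays, lines group means and bars SDs. The mean of the bleomycin controls stands highest in every panel, and bleomycin gapmer 1 replicate 4 sits among the controls for Col1a1, Col5a3 and Col18a1. The genes were chosen as lower than these same control arrays, which by itself favours the high control mean.

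Col7a1 and Col17a1, which anchor epithelium, fell as well. Col7a1 read 10.95, 10.77, 10.84, 11.26 and 10.94 with gapmer 1 and 10.96, 10.76, 10.68, 10.98 and 10.76 with gapmer 3, against 11.21 to 11.76 in controls. It fell by 0.57 (SE 0.09, adjusted p = 0.000534) and by 0.70 (SE 0.09, adjusted p = 4.49e-05). Col17a1 read 7.40, 7.88, 7.87, 7.40 and 7.95 with gapmer 1 and 6.60, 7.61, 7.42, 7.21 and 7.45 with gapmer 3, all below the control range of 8.22 to 8.73. It fell by 0.71 (adjusted p = 0.0188) and by 1.16 (adjusted p = 0.000351). The gapmer 1 call was lost without bleomycin control replicate 2 or gapmer 1 replicate 1. Over all fits that left out 1 array the gapmer 1 difference ran from -0.78 to -0.64. Of the 8 basal and squamous markers 1 was lower with gapmer 1 and 3 with gapmer 3, and Krt5 differed by -1.22 and -2.35. The markers did not move together with gapmer 1. The means of Krt5, Krt14, Krt15, Krt6a and Trp63 were lower than in bleomycin controls. Those of Krt13, Sprr3 and Dsg3 were higher, at 13.39, 11.13 and 6.39 against 12.90, 10.56 and 6.10. Their mean shift was 1.91 to 2.23 and -0.55 to 2.02, and the gapmer 3 array at -0.55 also had the lowest Col17a1 value, 6.60. Their part in these falls was not tested.

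Col18a1 read 11.21, 11.13, 11.23, 11.75 and 11.17 with gapmer 1 and 11.30, 11.30, 10.98, 11.29 and 11.14 with gapmer 3, against 11.65 to 11.92 in controls. It fell by 0.49 (adjusted p = 0.00223) and by 0.58 (adjusted p = 0.000316), on each of its features. Col6a4 read 5.91, 5.60, 5.97, 5.97 and 5.84 with gapmer 1 and 5.95, 6.08, 5.82, 5.90 and 5.93 with gapmer 3, dim levels below every control (6.56, 6.75, 6.36, 6.71 and 6.33). It was at least 1.35-fold lower with each gapmer (adjusted p = 2.91e-05 and 6.59e-05), and the PBS controls were also dim at 5.81, 5.85 and 5.74. The 2 features of Col6a4 disagreed, at -0.68 and 0.03 with gapmer 1 and -0.61 and -0.12 with gapmer 3. Col28a1 read 6.48, 5.89, 6.12, 6.52 and 6.19 with gapmer 1 and 6.27, 6.22, 5.93, 6.21 and 6.49 with gapmer 3, below all controls. It fell by 0.47 (adjusted p = 0.00646) and by 0.49 (adjusted p = 0.00373). Col12a1 read 9.31, 9.59, 9.66, 9.29 and 9.56 in controls, 9.17, 9.31, 9.33, 9.45 and 9.49 with gapmer 1 and 9.36, 9.26, 8.96, 9.07 and 9.25 with gapmer 3. It fell with gapmer 3 by 0.30 (adjusted p = 0.0308) with overlap, the difference running from -0.35 to -0.24 over all fits that left out 1 array. The call was lost without bleomycin control replicate 2, 3 or 5 or gapmer 3 replicate 3 or 4, and with only the groups compared (adjusted p = 0.064).

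**Figure D3:**
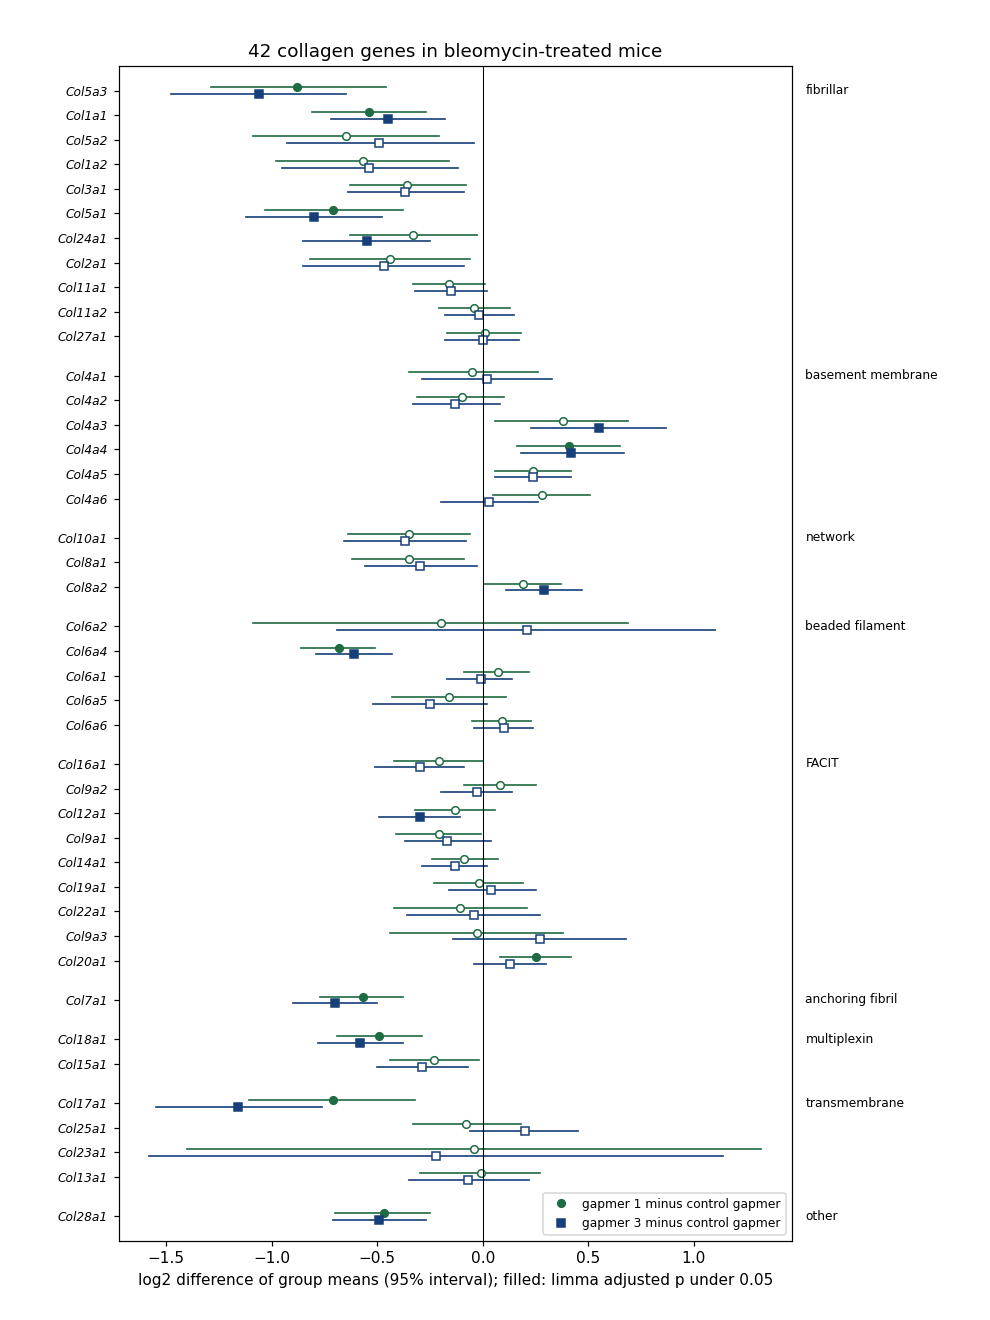
Difference between each gapmer and the control gapmer in bleomycin lungs for the 42 collagens (log2 scale, x axis; genes by class, y axis), with 95% confidence intervals from limma; 5 arrays per group, controls shared. Col1a1, Col5a1, Col5a3, Col7a1, Col17a1 and Col18a1 lie to the left of 0 under both gapmers, and Col4a3 and Col4a4 to the right.

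Type IV chains did not follow the fibrillar genes. Col4a1 differed by -0.05 with gapmer 1 (95% interval -0.35 to 0.26) and 0.02 with gapmer 3 (-0.29 to 0.33), and its 10 features spanned -0.07 to -0.02 and -0.06 to 0.04. Col4a2 differed by -0.10 (-0.31 to 0.10) and -0.13 (-0.33 to 0.08), reading 14.04, 13.72, 13.68, 14.02 and 13.53 and 13.95, 13.76, 13.62, 13.77 and 13.75. The lowest bound among these intervals was -0.35. The alveolar chain Col4a4 read 11.50, 11.41, 11.46, 11.64 and 11.63 in controls, 12.23, 12.11, 11.94, 11.88 and 11.53 with gapmer 1 and 12.10, 11.97, 11.77, 11.89 and 12.03 with gapmer 3. It rose by 0.41 (adjusted p = 0.0274) and 0.42 (adjusted p = 0.0189), and every gapmer 3 array was above the controls. Col4a3 read 10.65, 10.35, 10.44, 10.67 and 10.22 in controls, 11.30, 10.95, 10.36, 11.05 and 10.55 with gapmer 1 and 11.23, 10.84, 10.87, 11.05 and 11.09 with gapmer 3. It rose with gapmer 3 by 0.55 (adjusted p = 0.019) and differed by 0.38 with gapmer 1. Col4a5 differed by 0.24 and 0.24 (adjusted p = 0.0827 and 0.0669), and Col4a6, reading 10.04, 10.39, 10.41, 9.86 and 10.26 and 9.96, 9.93, 10.15, 9.74 and 9.91, by 0.28 and 0.03.

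The gapmer calls for the alveolar chains were fragile. The features of Col4a4 ranged from 0.06 to 0.41 with gapmer 1, and both its calls were lost when features were averaged. Single arrays also ended them, for gapmer 1 any of replicates 1 to 3 of either bleomycin group compared, and for gapmer 3 bleomycin control replicate 2, which also ended the Col4a3 call. With only the groups compared the gapmer 1 call of Col4a4 did not pass (adjusted p = 0.0638). In PBS mice Col4a4 differed by 0.48 with gapmer 1 (adjusted p = 0.0998) and 0.32 with gapmer 3, and Col4a3 by 0.48 and 0.53, none passing. In PBS mice Col4a3 read 10.59, 10.55 and 9.99 in controls, 10.96, 10.70 and 10.91 with gapmer 1 and 11.14, 10.75 and 10.84 with gapmer 3. Col4a4 there read 11.65, 11.62 and 11.14, 12.04, 11.77 and 12.05 and 11.90, 11.88 and 11.59. The control array of replicate 3 was the lowest for both. Of 6 lung epithelial markers 3 were lower with bleomycin, 3 higher with gapmer 1 and 2 higher with gapmer 3. Their mean shift was -0.56 to -0.20 in bleomycin controls, -0.36 to 0.05 with gapmer 1 and -0.18 to -0.09 with gapmer 3, and their part in the Col4a3 and Col4a4 values was not tested.

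**Figure D4:**
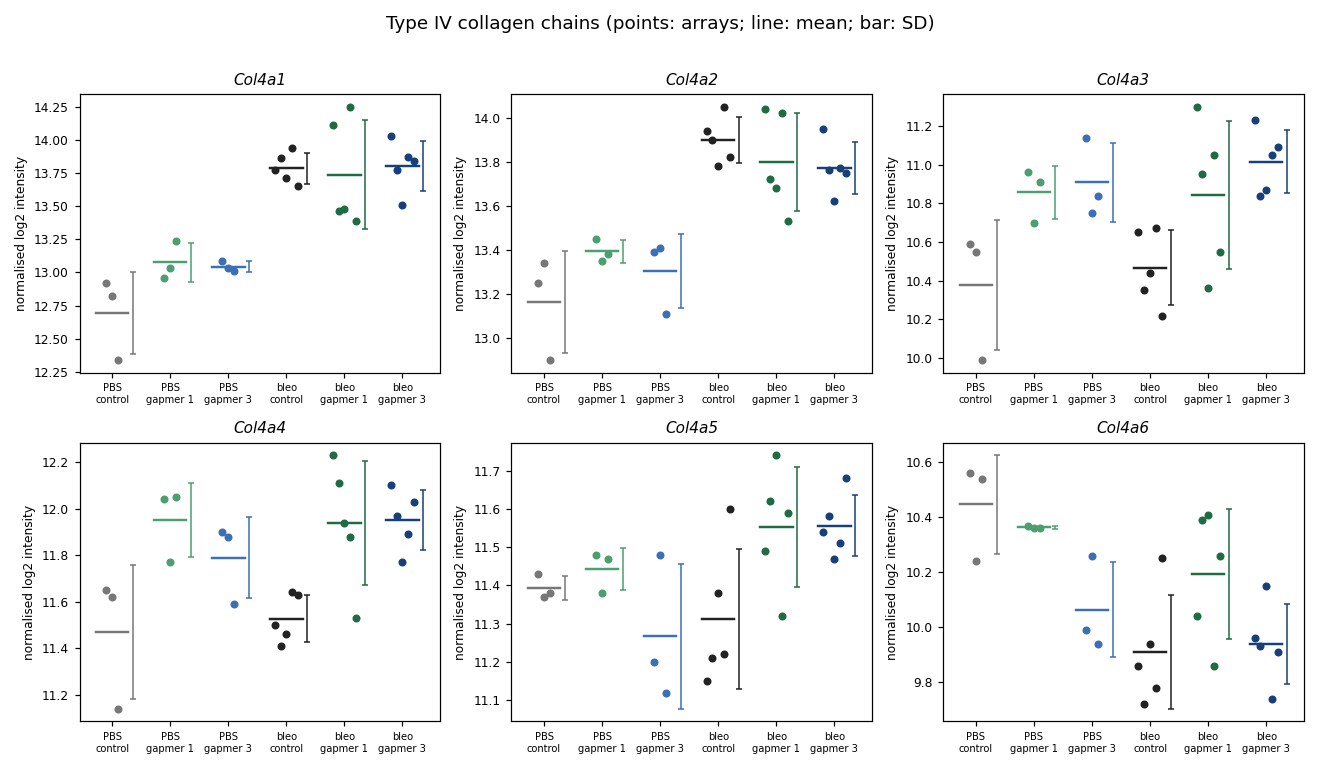
Log2 intensity per array (y axis) of the 6 type IV chains in the 6 groups (x axis); points are arrays, lines group means and bars SDs. Col4a1 and Col4a2 are high in all 3 bleomycin groups, whereas the means of Col4a3 and Col4a4 differ by 0.09 and 0.06 with bleomycin and by 0.38 to 0.55 with the gapmers in bleomycin lungs.

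Single FACIT and network genes also rose. Col20a1 read 7.53, 7.67, 7.77, 7.36 and 7.43 with gapmer 1 and 7.50, 7.48, 7.43, 7.47 and 7.27 with gapmer 3. Its gapmer 1 rise of 0.25 stood at an adjusted p of 0.0487, close to the threshold. It was lost in 18 of the 24 fits that left out 1 array, and over all 24 the rise ran from 0.20 to 0.31. The call was also lost after median centring or quantile normalisation, with an intensity trend, with only the groups compared and with the RNA integrity covariate. Col8a2 read 8.86, 8.61, 8.66, 8.66 and 8.95 with gapmer 1 and 8.92, 8.65, 9.02, 8.78 and 8.86 with gapmer 3. It rose with gapmer 3 by 0.29 (adjusted p = 0.0291), and by 0.24 to 0.36 over all fits that left out 1 array. The call was lost without bleomycin control replicate 2, 3 or 4 or gapmer 3 replicate 1, 3 or 5. It was also lost with only the groups compared (adjusted p = 0.0648) and when its features were averaged (0.09). Col16a1 read 12.89, 12.51, 12.54, 12.93 and 12.27 and 12.59, 12.59, 12.32, 12.62 and 12.58, differences of -0.21 and -0.30 that did not pass (adjusted p = 0.222 and 0.0568). Its features ran from -0.31 to 0.03 and from -0.49 to 0.07. With each gapmer it passed as a fall when features were averaged or each tested, and with array weights. With gapmer 3 it also passed without dim genes, with only the groups compared and with the replicate block. Col6a1, reading 14.59, 14.56, 14.55, 14.38 and 14.28 and 14.48, 14.44, 14.41, 14.32 and 14.32, differed by 0.07 (-0.09 to 0.22) and -0.01 (-0.17 to 0.14). The remaining members lay between -0.37 and 0.27 with either gapmer and did not pass.

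Gapmers 3 and 1 could not be separated in bleomycin lungs. By limma no collagen and none of the 20728 genes (0%) passed, with 3 collagens (7.14%) and 838 genes (4.04%) at an unadjusted p under 0.05. The median collagen differed by -0.01, with a median 95% half-width of 0.24. The largest differences among members called with a gapmer were -0.44 for Col17a1 (-0.84 to -0.04) and -0.22 for Col24a1 (-0.52 to 0.08).

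In PBS lungs no collagen passed the test with either gapmer. After adjustment 1.11% of all genes passed with gapmer 1 and 0.0338% with gapmer 3. At an unadjusted p under 0.05 in limma there were 9 members with gapmer 1 (21.4%, against 17% of all genes) and 7 with gapmer 3 (16.7%, against 9.76%). Median members differed by 0.07 and -0.05, with a median 95% half-width of 0.31, so smaller changes could not be resolved with 3 arrays a group. Col1a1 read 13.36, 13.10 and 13.37 with gapmer 1 and 13.04, 12.85 and 12.73 with gapmer 3 against 12.94 to 13.11 in controls, Col5a3 8.80, 8.53 and 8.65 and 8.24, 8.05 and 8.10 against 8.25 to 8.54. For Col1a1 2 of the 3 gapmer 1 arrays were above all controls and 2 of the 3 gapmer 3 arrays below them, and the differences of 0.25 and -0.16 did not pass. Col7a1 read 10.53, 10.46 and 10.48 with gapmer 1 and 10.20, 9.95 and 9.96 with gapmer 3 against 10.20 to 10.29, and Col17a1 8.16, 8.34 and 7.89 and 8.30, 7.30 and 7.21 against 7.63 to 7.73. Both were higher than every control in all gapmer 1 arrays, by 0.24 (adjusted p = 0.321) and 0.45 (adjusted p = 0.369). Col18a1, Col5a1, Col6a4 and Col28a1 differed by 0.02, 0.00, -0.08 and -0.07 with gapmer 1 and by -0.25, -0.18, -0.01 and -0.08 with gapmer 3. Col14a1, a FACIT of type I fibrils, read 10.81, 10.78 and 11.05 in controls, 10.72, 10.54 and 10.60 with gapmer 1 and 10.40, 10.50 and 10.45 with gapmer 3. Neither set of gapmer arrays overlapped the controls, and the differences of -0.26 and -0.43 missed the threshold (adjusted p = 0.16 and 0.146). On the other feature of Col14a1 the means were 7.67 in controls, 7.78 with gapmer 1 and 7.69 with gapmer 3, so the fall was not seen there. These Col14a1 arrays are listed because their values had been seen, so the lack of overlap is a description.

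The bleomycin response was then measured within each gapmer, on arrays that the control comparison did not use. Under gapmer 1, 14 collagens were higher with bleomycin and none lower (33.3%, against 6.35% of all genes higher and 3.13% lower). Under gapmer 3, 15 were higher and 1 lower (35.7% and 2.38%, against 7.02% and 6.85%). All 14 were among the 23 that rose in controls: 7 of the fibrillar genes, Col4a1, Col4a2, Col6a1, Col7a1, Col16a1, Col18a1 and Col28a1, and the same 14 passed under gapmer 3, where Col14a1 was added. Col1a1 rose by 1.08 under gapmer 1 and 1.57 under gapmer 3 against 1.86 with the control gapmer. Col5a3 rose by 0.96 and 1.31 against 2.10, and Col4a1 by 0.66 and 0.76 against 1.09. Over the 23 the median response was 0.90 in controls, 0.46 under gapmer 1 and 0.56 under gapmer 3; they were chosen on the control arrays, so these medians are a description. The count under gapmer 1 was 6 without PBS gapmer 1 replicate 2, 6 with the RNA integrity number as a covariate and 3 with only the groups compared, where Col5a3 (adjusted p = 0.128) and Col4a1 (adjusted p = 0.133) did not pass and Col1a1, Col3a1 and Col24a1 did. The fall under gapmer 3 was Col23a1 at -2.57 (adjusted p = 0.0248), which came to -0.65 (adjusted p = 0.00975) without PBS gapmer 3 replicate 3 and did not pass with only the groups compared (adjusted p = 0.189).

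The change in response itself passed for 7 collagens with gapmer 1, all lower, and 1 with gapmer 3 (16.7% and 2.38% of members, against 2.74% and 1.64% of all genes lower). No member's response was larger, where 4.97% and 1.45% of all genes were. With gapmer 1 these were Col7a1 (-0.82, adjusted p = 0.00481), Col6a4 (-0.61, 0.0135), Col1a1 (-0.79, 0.0265), Col17a1 (-1.16, 0.0274), Col5a3 (-1.14, 0.0366), Col11a1 (-0.46, 0.0394) and Col3a1 (-0.70, 0.0491). With gapmer 3 it was Col6a4 (-0.60, adjusted p = 0.0249); Col7a1 stood at -0.49 (adjusted p = 0.0825) and Col1a1 at -0.29 (adjusted p = 0.501). The 8 collagens lower with gapmer 1 in bleomycin lungs included Col5a1, Col18a1 and Col28a1, whose change in response did not pass (adjusted p = 0.0896, 0.051 and 0.166). Both Col6a4 calls were lost when its features were averaged. The gapmer 1 call of Col7a1 was kept in every fit that left out 1 of the 24 arrays. It was lost in 18 of them for Col3a1, 11 for Col5a3, 9 for Col11a1, 5 for Col17a1 and 4 for Col1a1, each time including PBS gapmer 1 replicate 1 and bleomycin control replicate 2. With only the groups compared Col3a1 (adjusted p = 0.0767), Col5a3 (adjusted p = 0.0703) and Col11a1 (adjusted p = 0.0531) did not pass. The RNA integrity covariate ended the calls of Col3a1 (adjusted p = 0.0509) and, with gapmer 3, of Col6a4 (adjusted p = 0.0609). The counts moved with single arrays, from 2 to 11 for gapmer 1 and from 0 to 5 for gapmer 3. Bleomycin gapmer 1 replicate 4 gave the highest of each when left out. The lowest for gapmer 1 came without PBS gapmer 1 replicate 1 or bleomycin control replicate 2, and for gapmer 3 without PBS control replicate 1 or 3.

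**Figure D5:**
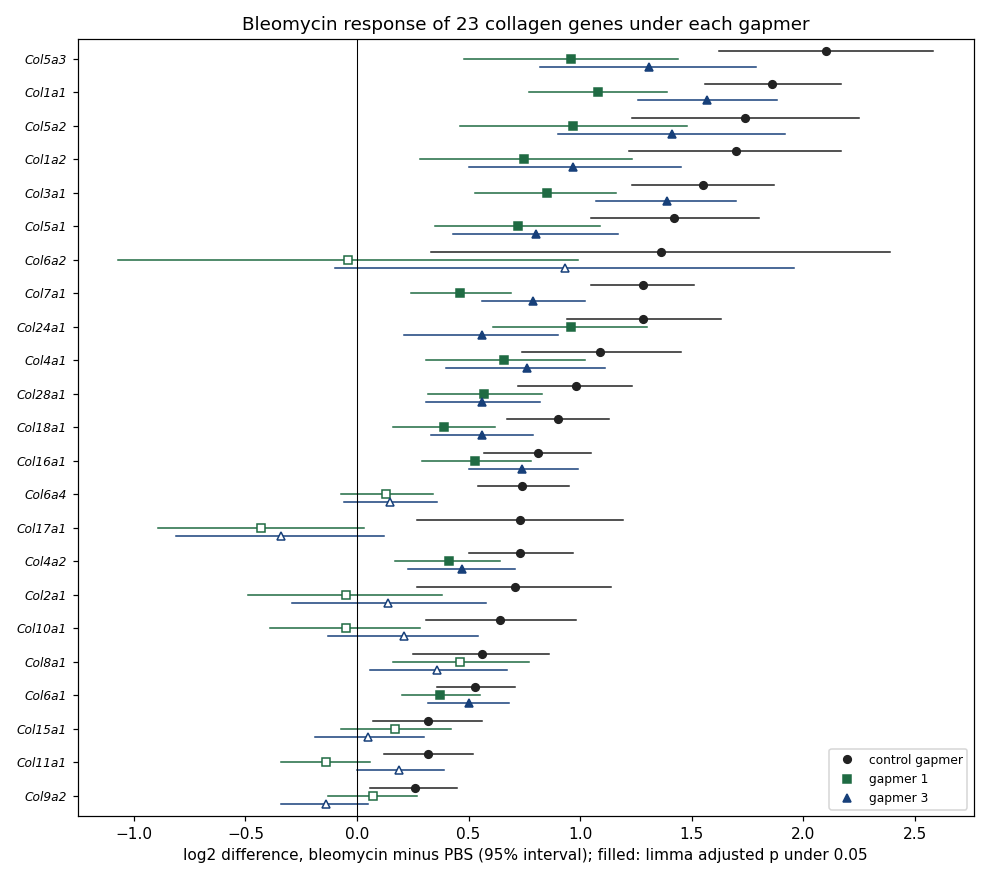
Bleomycin response (log2 difference between bleomycin and PBS lungs, x axis) of the 23 collagens that rose with the control gapmer (y axis), under each gapmer; lines are 95% intervals from limma and filled symbols passed the test. Each gapmer 1 and gapmer 3 symbol lies to the left of that of the control gapmer, for Col1a1 at 1.08 and 1.57 against 1.86. The genes were chosen on the control arrays, which by itself favours this order, and the change in response passed for 7 with gapmer 1 and 1 with gapmer 3.

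Chains that assemble together were compared as log2 differences within an array. Over 10 pairs and 3 comparisons, 30 two-sided exact permutation tests gave none that passed after Benjamini-Hochberg adjustment. The smallest adjusted p was 0.0794 (exact p = 0.00794, the smallest that 5 against 5 arrays allow), reached with gapmer 3 by Col5a1 over Col1a1 (-0.35), Col5a3 over Col5a1 (-0.26) and Col4a3 over Col4a1 (0.53). Col1a1 over Col1a2 moved by 0.17 with bleomycin, 0.03 with gapmer 1 and 0.08 with gapmer 3. Col4a1 over Col4a2 moved by 0.36 with bleomycin (exact p = 0.0357, the smallest that 5 against 3 arrays allow; adjusted p = 0.107). The log2 differences hold features of different brightness, so their changes and not their levels are read.

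Genes that make and cross-link collagen were read from a list of 33, of which 32 were measured. With bleomycin 14 rose and 5 fell, with a median of 0.24. Lox and Loxl2, lysyl oxidases that cross-link fibres, rose by 1.67 and 1.26, while Pcolce2, an enhancer of procollagen cleavage, and Colgalt2, a collagen galactosyltransferase, fell by 1.69 and 1.34. With gapmer 1, 2 were higher and 4 lower, and with gapmer 3, 2 higher and 5 lower. Lox fell by 0.97 (adjusted p = 0.0107) and 1.03 (adjusted p = 0.0055), and Loxl2 by 0.54 and 0.53. Pcolce2 rose by 0.70 and 0.77 and Colgalt2 by 0.46 and 0.49.

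Of 10 collagen receptors 3 rose and 4 fell with bleomycin. The leukocyte receptor Lair1 rose by 1.52 and fell by 0.65 with gapmer 1 (adjusted p = 0.014), with a difference of -0.32 with gapmer 3 (adjusted p = 0.237). Itga1, an integrin chain that binds type IV collagen, fell by 0.52 with bleomycin and rose by 0.54 with gapmer 3 (adjusted p = 0.00414). Among 13 fibril-associated proteoglycans and glycoproteins 6 rose and 3 fell with bleomycin, and 1 was higher and 3 lower with each gapmer. Lumican (Lum) and biglycan (Bgn) rose by 1.17 and 0.88; Lum fell by 0.43 and 0.46 and Bgn by 0.51 and 0.52 with the gapmers. Tenascin X (Tnxb) fell by 1.04 with bleomycin and rose by 0.57 and 0.42. Of 14 measured basement membrane partners 3 rose with bleomycin and none fell. The laminin chain Lama1 rose by 2.99, and fell by 1.00 and 0.96 with the gapmers, while Lama3 rose by 0.51 and 0.53.

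Cell type markers moved with the same contrasts, and their part in the collagen values was not tested. Of 6 myofibroblast and smooth muscle markers 3 rose with bleomycin, 3 were lower with gapmer 1 and 4 with gapmer 3. Their mean shift from PBS controls was 0.32 to 0.67 in bleomycin controls, -0.12 to 0.30 with gapmer 1 and -0.13 to 0.12 with gapmer 3. Acta2, the smooth muscle actin of myofibroblasts, rose by 0.89 and fell by 0.64 and 0.79. Of 6 resident fibroblast markers 3 fell with bleomycin and 2 were higher with each gapmer, the mean shift being -0.75 to -0.44 in bleomycin controls, -0.57 to -0.11 with gapmer 1 and -0.26 to -0.09 with gapmer 3. All 5 endothelial markers fell with bleomycin, and 4 of 5 immune markers rose; with each gapmer 2 of the latter were lower. All 5 adipose markers fell with bleomycin, by a median of 1.57. Their mean shift was -0.34 to 0.42 in PBS controls, -1.84 to -1.39 in bleomycin controls, -1.57 to -0.58 with gapmer 1 and -1.89 to -0.51 with gapmer 3, and in PBS mice it was also low, at -1.20 to -0.32 and -1.63 to -0.51 with the gapmers. Of 5 mesothelial markers 4 fell and 1 rose with bleomycin, and 2 were higher with gapmer 1. Skeletal muscle markers varied most between arrays: 2 of 9 fell with bleomycin and 1 rose with gapmer 1, and the mean shift ran from -5.03 to 0.70 over PBS arrays and from -4.02 to 0.67 over bleomycin arrays, lowest in PBS gapmer 3 replicate 2 and bleomycin gapmer 3 replicate 1. Of 6 bone markers 1 rose with bleomycin.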

How the data were processed

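Per the labels, Cy3-labelled lung RNA was hybridised to one-colour Agilent arrays. The values deposited by the authors are log2 intensities; their array medians, between 6.485 and 6.495, show normalization between arrays. The submitters' processing notes name limma without a version, and the sources used here do not give background correction, filters or batches. Of 62976 features 31465 had a single symbol and 31511 had no symbol. Of 20774 symbols 18550 were current in RefSeq names for GRCm38.p6, 1957 were updated by accession and 263 by synonym. For genes with several features (6176) the brightest on average was taken; 20728 genes resulted and none was filtered out for its level.

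All 24 arrays entered one fit of 6 group means in limma 3.58.1 under R 4.3.3 (lmFit and eBayes, two-sided, 18 residual and 3.26 prior degrees of freedom; median residual SD 0.14 on the log2 scale). A gene was called where its p, adjusted after Benjamini and Hochberg over every gene of the contrast, was under 0.05. Intervals are 95% and not adjusted. Dnm3os features and differences between chains were compared with exact permutation tests. Motifs were counted in RefSeq upstream sequences. The fit was tested on simulated data. Python 3.11.15 was used with SciPy 1.17.1, NumPy 2.4.6, pandas 2.3.3 and matplotlib 3.10.9.

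The members, their classes and the gene lists were chosen with earlier results of these data known. Values in every array are given for the brightest member of each class, the 3 largest rises and 3 largest falls with bleomycin, and members called with a gapmer; Col5a2, Col6a2 and Col14a1 were added after their values were seen. Up to 4 called genes per list are named. Alternatives were 2 other normalizations, leaving out dim genes, other uses of features, an intensity trend, robust variances, array weights, a replicate block, an RNA integrity covariate, a fit of the compared groups alone and each array left out.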

Additional observations from a re-analysis of the deposited data

Results flagged for a closer look

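Arrays that stood apart were sought for each collagen in each group of 5, by a gap to the nearest array above 0.71 of the group's range. Of 126 gene and group pairs 10 met this, and chance alone gives about 1 in 20. In bleomycin controls Col20a1 was high in replicate 5 (7.54, the others 7.21 to 7.30), Col6a5 in replicate 1 (6.41, the others 5.46 to 5.73) and Col9a1 in replicate 4 (6.26, the others 5.81 to 5.94). Col23a1 was low in replicate 3 (9.32, the others 9.61 to 9.72), and Col6a2, a core chain of type VI collagen, was low in replicate 5 (9.59, the others 11.73 to 12.08). With gapmer 1 Col18a1 was high in replicate 4 (11.75, the others 11.13 to 11.23) and Col9a3 low in replicate 5 (5.26, the others 5.59 to 5.71). With gapmer 3 Col16a1 was low in replicate 3 (12.32, the others 12.58 to 12.62), Col6a2 low in replicate 2 (11.42, the others 11.67 to 11.76) and Col9a3 high in replicate 1 (7.06, the others 5.50 to 5.64).

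The bleomycin response of 7 collagens was smaller with gapmer 1 than with the control gapmer by the limma interaction test, and that of 1 with gapmer 3. With gapmer 1 the differences in response were -1.16 for Col17a1, -1.14 for Col5a3, -0.82 for Col7a1, -0.79 for Col1a1, -0.70 for Col3a1, -0.61 for Col6a4 and -0.46 for Col11a1, which was dim in all groups. With gapmer 3 the difference was -0.60 for Col6a4. Col6a4 was dim in every group except the bleomycin controls, and both its calls were lost when its features were averaged.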

How the results depend on the processing

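No collagen changed direction in any of the 10 contrasts under any alternative where it had been called. The shares of all genes called in the alternative fits are not given here. Member counts from those fits, in this section and above, therefore do not show whether collagens moved more or less than other genes. The counts with bleomycin under the control gapmer stayed between 20 and 23 higher with each array left out and at 3 lower. Other counts moved. Rises with gapmer 1 in bleomycin lungs (2) were 1 after median centring, quantile normalisation over genes, averaging features, an intensity trend or the RNA integrity covariate, 4 with array weights, 0 with only the groups compared, and 0 to 4 with 1 array left out. Falls with gapmer 1 (8) were 15 with array weights, 6 with only the groups compared, which ended those of Col1a1, Col5a1 and Col5a3, and 7 to 13 with 1 array left out. Falls with gapmer 3 (10) were 17 with array weights and 8 to 13 with 1 array left out. With only the groups compared the gapmer 3 fall of Col12a1 ended, while Col10a1, Col16a1, Col1a2, Col3a1 and Col8a1 passed as falls. Rises with gapmer 3 (3) were 1 with averaged features and 0 to 4 with 1 array left out. Collagens higher with bleomycin under gapmer 1 (14) were 3 with only the groups compared, 6 with the RNA integrity covariate and 6 to 16 with 1 array left out, and those lower (0) were 0 to 1. The fall under gapmer 3 (1) was 0 with only the groups compared or the replicate block.

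Smaller responses with gapmer 1 (7) were 12 with array weights, 4 with only the groups compared and 2 to 11 with 1 array left out. Larger ones (0) were 1 after median centring, quantile normalisation, leaving out dim genes or the replicate block, 2 with array weights and 0 to 2 with 1 array left out. Smaller responses with gapmer 3 (1) were 0 with averaged features or the covariate, 7 with array weights, 3 with only the groups compared, 2 with the replicate block and 0 to 5 with 1 array left out, and larger ones (0) were 1 with array weights and 0 to 1 with 1 array left out. The cause was not tested. Other features of Dnm3os gave -0.28 and -0.01 with gapmer 1 and -0.21 and -0.08 with gapmer 3 in bleomycin lungs, and -0.01 and 0.02 with gapmer 1 in PBS lungs.

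Samples share only a replicate number across groups: deviations of 51 same-numbered pairs correlated between -0.41 and 0.42 (median 0.07; 23 over 0.1). With the replicate block 22 collagens rose with bleomycin, 11 fell with gapmer 1 and 12 with gapmer 3; the bleomycin call of Col15a1 (adjusted p = 0.0765), the gapmer 1 rise of Col20a1 (0.057), the fall of Col23a1 under gapmer 3 (0.053) and the change in response of Col11a1 (0.0534) did not pass. Signal near background limits the 6 collagens that were dim in all groups.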
